A study of Mus musculus with 2 samples.

Results

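The Lyve1-low mature endothelium of the chimaeric embryos comprised 236 of the 18233 cells in the deposited spliced-count table. Members were chosen by their own UMI counts, so that those counts are a description of the rule. A cell was included if it held at least 1 spliced UMI of Cdh5, at least 8 over Pecam1, Cdh5, Kdr, Esam and Egfl7 together, fewer than 3 of Lyve1, fewer than 2 of Etv2, fewer than 3 of Spi1, and less than 0.5% of its spliced UMIs on the embryonic globins Hba-x, Hbb-bh1 and Hbb-y. A UMI is a molecular identifier, so that each UMI stands for 1 captured RNA molecule. Of the 8981 cells of the tdTomato-positive fraction (tomPOS), 144 met the rule (1.60%, Clopper-Pearson 95% interval 1.35 to 1.89%). Of the 9252 cells of the tdTomato-negative fraction (tomNEG), 92 met it (0.994%, 0.802 to 1.22%).

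The study injected mouse embryonic stem cells into C57BL/6 blastocysts at E3.5 and collected 6 chimaeric embryos. Injected cells were a single tdTomato-expressing clone of a male line in which a 38 bp frameshift mutation in exon 4 inactivated the X-linked gene Gata1 (written Gata1-/- tdTom+ in the labels, although a male line carries a single copy), and the remaining cells were those of the wild-type host (WT, tdTom-). The whole embryos were pooled, dissociated and sorted by tdTomato, and each fraction gave 1 10x Chromium library. The tomPOS library carries the age E8.5 and the tomNEG library E8.6, although both came from the same pool. Since there is 1 library for each fraction, no test between fractions was possible. Values are given for both libraries with 95% intervals, which cover counting error only, and clone, strain background, sex and genotype cannot be told apart.

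Endothelial cells line all blood vessels and the inner surface of the heart. They are held together by VE-cadherin (Cdh5) and tight-junction proteins, grow towards VEGF through its receptor Kdr, and arise from mesodermal progenitors that transiently use the ETS-family factor Etv2. In the mouse embryo, Lyve1, a hyaluronan receptor best known from lymphatic vessels, also marks yolk sac and venous endothelium, while Notch signalling through Dll4, Hey1 and Hey2 accompanies the arterial fate.

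Depth was sufficient for a summed profile and thin for single cells. The tomPOS members held 2348306 spliced UMIs (median 15135.5 a cell) and the tomNEG members 1453871 (median 13244.5). Mitochondrial shares had medians of 2.17% and 2.13%. Scrublet called 14 of the 144 tomPOS members doublets (9.72%) and 9 of the 92 tomNEG members (9.78%), against 2.77% and 3.55% of reference cells, which are the cells without Cdh5, with fewer than 3 UMIs over the 5 endothelial genes and under 0.5% globin. Reference cells were not cleared of cells with blood progenitor RNA, and their values include such cells. Those without a UMI of Spi1, Runx1, Myb or Ptprc numbered 5704 of 6531 in tomPOS and 6352 of 6678 in tomNEG. The log2 fold of Spi1, tomPOS over tomNEG, was 6.44 in reference cells. No member shared its barcode with any cell of the other library. Xist reached 3 UMIs in 3 of the 144 tomPOS members and in 41 of the 92 tomNEG members. Gata1, the targeted gene and a regulator of red cell and megakaryocyte development, had 0 spliced UMIs in the members of both libraries, which allows up to 1.28 CPM (UMI counts scaled to a common library total) in tomPOS and 2.06 CPM in tomNEG at 3 counts. Across the whole libraries spliced Gata1 stood at 6.73 CPM in tomPOS and 29.3 CPM in tomNEG. Its unspliced UMIs went the other way, at 60.6 CPM of all unspliced UMIs in tomPOS (1532 UMIs) and 16.9 CPM in tomNEG (413 UMIs). The members held 1 unspliced Gata1 UMI in tomPOS and 0 in tomNEG. Gata1 counts therefore could not check the genotype of the endothelium, and a frameshift need not remove the transcript.

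The label was first set against its markers. Plvap, which builds the diaphragms of endothelial pores, stood at 441 CPM (1036 UMIs) in tomPOS members and 499 CPM (726 UMIs) in tomNEG members. It was seen in 95.8% and 93.5% of members, against 6.17% and 5.91% of reference cells, whose median depths were 16714 and 15231 spliced UMIs. Emcn, the sialomucin endomucin, stood at 113 CPM (266 UMIs) and 195 CPM (283 UMIs), and was seen in 50.7% and 59.8% of members against 0.322% and 0.329% of reference cells. Esam, an adhesion molecule used by the rule, reached 233 and 261 CPM, and Cdh5, which every member held by definition, 305 and 329 CPM. Cdh5 and Esam were counts of the rule, so only Plvap and Emcn bear on the label, and Emcn was not seen in many single cells. Its level also differed between groups of members described below, at 267 CPM in group 1, 40.6 CPM in group 2 and 258 CPM in group 3. Thinned to 8000 spliced UMIs a cell, which left 130 and 86 members, Emcn was seen in 42.5% and 52.2%.

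Endothelial genes that the rule did not name separated the members most from reference cells, which leave out other endothelium and globin-rich cells. Cldn5 and Icam2 were not particular to the members. Cells just above the Lyve1 limit, with 3 or 4 UMIs (14 tomPOS and 2 tomNEG cells), held Cldn5 at 421 and 281 CPM and Icam2 at 233 and 281 CPM. Cldn5, the main tight-junction claudin of endothelium, stood at 352 CPM in tomPOS and 351 CPM in tomNEG members, against 0.481 and 0.347 CPM in reference cells. It was seen in 85.4% and 83.7% of members and in 0.827% and 0.539% of reference cells, with a median of 4 and 5 UMIs a member and at most 26 and 21. Icam2, an endothelial ligand of leukocyte integrins, stood at 222 and 233 CPM against 0.324 and 0.206 CPM. Gja4, the gap-junction protein connexin 37, reached 87.7 and 155 CPM against 0.306 and 0.478 CPM, and was seen in 46.5% and 48.9% of members against 0.490% and 0.704% of reference cells. Myct1, a membrane protein gene first named as a Myc target, reached 40.9 and 38.5 CPM against 0.149 and 0.0844 CPM. Since the rule chose cells by endothelial genes of the same cells, these values describe the members and test nothing.

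The 250 bases before the annotated start are shown for 4 endothelial genes outside the rule (Emcn, Gja4, Myct1 and Cldn5). These genes set members apart from reference cells. ETS-family factors are abundant in endothelium and read the core letters GGA followed by A or T, of which GGAAG is 1 form. Sequences are from RefSeq (GRCm38.p6), 5′ to 3′ on the strand of the gene, with GGAAG or its reverse complement CTTCC in capitals. All 4 genes looked up were matched by symbol.
Emcn (chr3:137340828-137341077, + strand): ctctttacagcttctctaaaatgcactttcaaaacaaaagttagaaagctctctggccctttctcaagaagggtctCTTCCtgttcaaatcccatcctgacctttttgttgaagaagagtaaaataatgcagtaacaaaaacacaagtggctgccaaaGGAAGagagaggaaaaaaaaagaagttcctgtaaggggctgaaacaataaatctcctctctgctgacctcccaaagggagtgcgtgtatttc
Gja4 (chr4:127314040-127314289, - strand): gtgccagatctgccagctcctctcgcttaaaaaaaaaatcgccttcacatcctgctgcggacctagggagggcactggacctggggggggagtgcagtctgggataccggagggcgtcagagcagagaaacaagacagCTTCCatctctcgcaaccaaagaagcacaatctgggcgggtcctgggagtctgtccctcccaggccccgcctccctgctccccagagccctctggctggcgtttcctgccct
Myct1 (chr10:5593478-5593727, + strand): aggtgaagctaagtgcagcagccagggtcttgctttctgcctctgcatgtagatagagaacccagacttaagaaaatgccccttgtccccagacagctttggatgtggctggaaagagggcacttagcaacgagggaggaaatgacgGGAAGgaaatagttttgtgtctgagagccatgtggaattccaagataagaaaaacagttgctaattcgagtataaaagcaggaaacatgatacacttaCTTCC
Cldn5 (chr16:18776597-18776846, + strand): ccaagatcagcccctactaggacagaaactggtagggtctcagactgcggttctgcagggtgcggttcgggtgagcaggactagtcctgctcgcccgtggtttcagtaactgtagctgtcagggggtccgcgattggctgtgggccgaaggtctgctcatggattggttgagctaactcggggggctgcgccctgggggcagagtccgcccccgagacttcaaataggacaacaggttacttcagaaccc
The letters occurred 2 times before Emcn (first at position -174 and last at -92 from the start), 1 time before Gja4 (-112), 2 times before Myct1 (-103 and -5) and 0 times before Cldn5. Of all 32851 windows of this length, 64.1% held the motif on either strand. Other GGAA or GGAT letters on either strand were not marked or counted. A match is a description of letters, and these data hold no binding measurement.

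Unspliced molecules gave a reading of the rule genes from molecules the rule did not count. Over Pecam1, Cdh5, Kdr, Esam and Egfl7, unspliced UMIs stood at 1822 CPM of all unspliced UMIs in tomPOS members and 1882 CPM in tomNEG members, against 54.0 and 43.9 CPM in reference cells. Unspliced Cdh5 stood at 484 and 529 CPM against 0.561 and 0.731 CPM. Members and reference cells were chosen by spliced UMIs of these same genes, so these differences describe that choice and test nothing. The unspliced share of these 5 genes was 20.3% in tomPOS members (19 to 21.7%) and 20.8% in tomNEG members (19.1 to 22.5%). In the cells that met the same rule but held at least 3 Lyve1 UMIs (72 tomPOS and 58 tomNEG cells, called Lyve1-high endothelium here), the share was 16.9% (15.4 to 18.5%) and 17.6% (15.7 to 19.6%). In cells that met it with at least 2 Etv2 UMIs and any Lyve1 (150 and 90 Etv2-positive cells), it was 20.9% and 19.5%.

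The thresholds cut through a continuum for some genes and not for others. Cells just inside the endothelial sum (8 or 9 UMIs, 6 tomPOS and 9 tomNEG cells) held Plvap at 336 and 491 CPM, and those just outside it (6 or 7 UMIs, 7 and 8 cells) at 185 and 476 CPM. Cells with 1 Etv2 UMI (55 and 32 members) had Emcn at 92.2 and 164 CPM, and those with 2 (33 and 15 cells, outside) at 116 and 168 CPM. Around the limit on Spi1, the myeloid factor PU.1, cells inside with 1 or 2 UMIs (17 and 6 members) had Plvap at 444 and 211 CPM, whereas those outside with 3 or 4 UMIs (9 and 2 cells) had 90.1 and 23.2 CPM. Members with 1 or 2 Lyve1 UMIs numbered 27 in tomPOS and 7 in tomNEG. Cells just above that limit, with 3 or 4 Lyve1 UMIs (14 and 2 cells), held Plvap at 357 and 493 CPM.

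Most endothelial genes stood within 2-fold of each other in Gata1-/- and host endothelium. Of the junction and surface genes with at least 30 UMIs in the members, 0 of 17 were at least 2-fold higher in tomPOS with an interval that excludes 0, and 1 was lower. Among all 7765 genes at that depth, 1.04% were higher and 1.35% lower, and a single call is too few to set against these shares. The list's median log2 fold of 0.01 lay beside -0.01 over all of these genes. The list holds Cdh5, Pecam1, Esam and Egfl7, whose counts chose the members, so both values draw in part on the rule. The exception was Clec14a, a vascular C-type lectin, with 9.37 CPM (22 UMIs) in tomPOS and 20.6 CPM (30 UMIs) in tomNEG (log2 fold -1.14, 95% interval -2.0 to -0.30). None of the 18 measured VEGF and angiopoietin genes and none of the 21 endothelial transcription factors passed 2-fold in either direction. Kdr, the main VEGF receptor and a rule gene, stood at 344 and 325 CPM, its decoy relative Flt1 at 152 and 151 CPM, and the angiopoietin receptor Tek at 76.2 and 81.8 CPM. Among transcription factors, the Sox factor Sox17 stood at 126 and 125 CPM and the ETS factor Fli1 at 165 and 177 CPM.

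**Figure D1:**
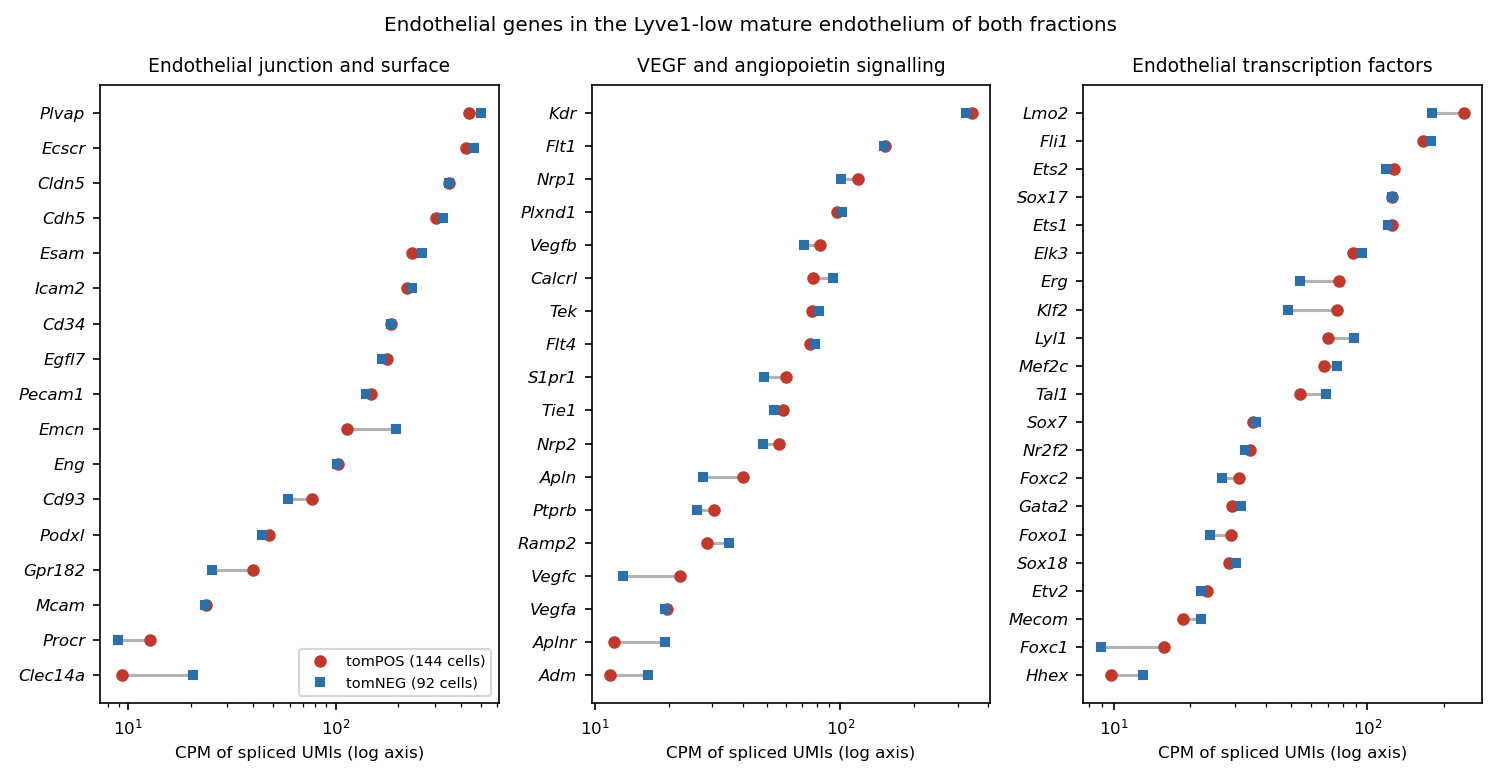
Level of each measured endothelial gene in CPM of spliced UMIs (log axis) in the 144 tomPOS (red circles) and 92 tomNEG members (blue squares), in 3 gene lists. Most pairs lie close together, and the widest gaps are those of Clec14a (9.37 against 20.6 CPM), Emcn (113 against 195 CPM) and Foxc1 (15.8 against 8.94 CPM, with an interval that includes 0).

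Several genes differed by less than 2-fold with intervals that exclude 0. Emcn was lower in tomPOS members (log2 fold -0.78, -1.03 to -0.53), and its unspliced UMIs, at 297 and 541 CPM, differed alike (-0.86, -1.23 to -0.50). Gja4 was lower as well (-0.82, -1.10 to -0.54). Higher in tomPOS was the Notch ligand Dll4 (41.7 against 22 CPM, 0.92, 0.33 to 1.55). The nitric oxide synthase Nos3 was higher in spliced UMIs (47.7 against 28.2 CPM, 0.76, 0.23 to 1.31), whereas its 27 and 23 unspliced UMIs gave -0.45 (-1.31 to 0.42). The shear-responsive factor Klf2 (76.2 against 48.8 CPM, 0.64, 0.24 to 1.06) and the fatty acid carrier Fabp5 (416 against 275 CPM, 0.60, 0.43 to 0.77) pointed the same way. In reference cells, the same folds were -0.04 for Emcn, -0.64 for Gja4, 1.90 for Dll4 (28 and 7 UMIs), -0.06 for Nos3, 0.01 for Klf2 and 0.03 for Fabp5. Klf2 and Dll4 were also among the leading genes of a group of members, described below as group 1, that held 55 of the 144 tomPOS and 20 of the 92 tomNEG cells, and its part in these folds was not tested. These are differences between 2 libraries, and their size relative to embryo-to-embryo spread is unknown.

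The remaining vascular lists held few genes beyond 2-fold. None of the 15 arterial, 18 BMP and TGF-beta, 11 Notch, 16 basement membrane, 8 metabolism and blood-flow or 7 haemogenic genes with at least 30 UMIs did so, nor did any of 20 S-phase and 20 G2/M genes. Spi1, on the haemogenic list, is limited by the rule. That limit took the cells left from 193 to 146 in tomPOS and from 101 to 95 in tomNEG. The haemogenic count was taken after this unequal loss and so draws in part on the rule. The DNA replication helicase gene Mcm6 stood at 172 and 210 CPM, and the proliferation marker Mki67 at 235 and 254 CPM. Of 11 venous and lymphatic genes, 1 was higher in tomPOS, beside the 1.04% of all genes given above, and it was Lyve1, whose level the rule itself restricts (15.3 against 6.88 CPM, 36 and 10 UMIs). Of 9 endocardial genes, 1 was likewise higher beside that 1.04%, Nrg1, the neuregulin by which endocardium signals to heart muscle (13.6 against 5.50 CPM, 32 and 8 UMIs, log2 fold 1.31, 0.16 to 2.64). Its unspliced UMIs, 446 and 121, differed alike (1124 against 489 CPM, log2 fold 1.20, 0.91 to 1.5). Runx1, the factor of blood-forming endothelium, had 14 spliced UMIs in 10 tomPOS members and 0 in tomNEG members. Of the 14, 9 lay in 5 cells of a small group of members, described below as group 5. Its unspliced UMIs numbered 73 and 31 (184 and 125 CPM), so RNA of the gene was captured in both fractions.

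Of the 4734 genes that reached 100 spliced UMIs over all members, 17 (0.359%) were at least 2-fold higher in tomPOS and 26 (0.549%) at least 2-fold lower. In the reference cells, the same genes gave 28 (0.591%) and 17 (0.359%). Of the 43 genes, 15 were also past 2-fold in the same direction in reference cells, 4 higher and 11 lower. Imprinted genes, which are read from the copy of 1 parent only, were prominent among them. Of the 18 measured imprinted genes, 5 were higher and 7 lower in tomPOS members, against the backgrounds of 1.04% and 1.35% given above, and 4 were higher and 6 lower in reference cells. Some of the lower calls rested on 2 tomNEG cells described below, since without them and 1 tomPOS cell Ascl2 had 2 and 2 UMIs (2 and 42 with them), Rhox5 turned from -1.46 to 0.51 on the log2 scale and Phlda2 went from -3.09 to -1.83.

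Several named imprinted genes had folds in reference cells close to those in members, and others did not. Grb10, a growth-restraining adaptor protein, had 10 UMIs in tomPOS and 295 in tomNEG members (4.26 against 203 CPM, log2 fold -5.57, -6.65 to -4.68), and its fold in reference cells was -5.55. Cdkn1c, a cyclin-dependent kinase inhibitor, stood at 11.1 against 429 CPM (-5.27), and at -6.07 in reference cells. Igf2r, which clears the growth factor Igf2, stood at 20.4 against 97.7 CPM (-2.26), and at -2.27 in reference cells. Impact, a regulator of translation, stood at 92.4 against 28.9 CPM (1.68, 1.20 to 2.19), and at 1.48 in reference cells. Peg3, a zinc-finger gene expressed from the paternal copy, stood at 1414 against 640 CPM (1.14, 1.04 to 1.25), and at 1.18 in reference cells. Igf2 itself was lower, at 362 against 855 CPM (-1.24, -1.37 to -1.11), while its fold in reference cells was -0.66.

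**Figure D2:**
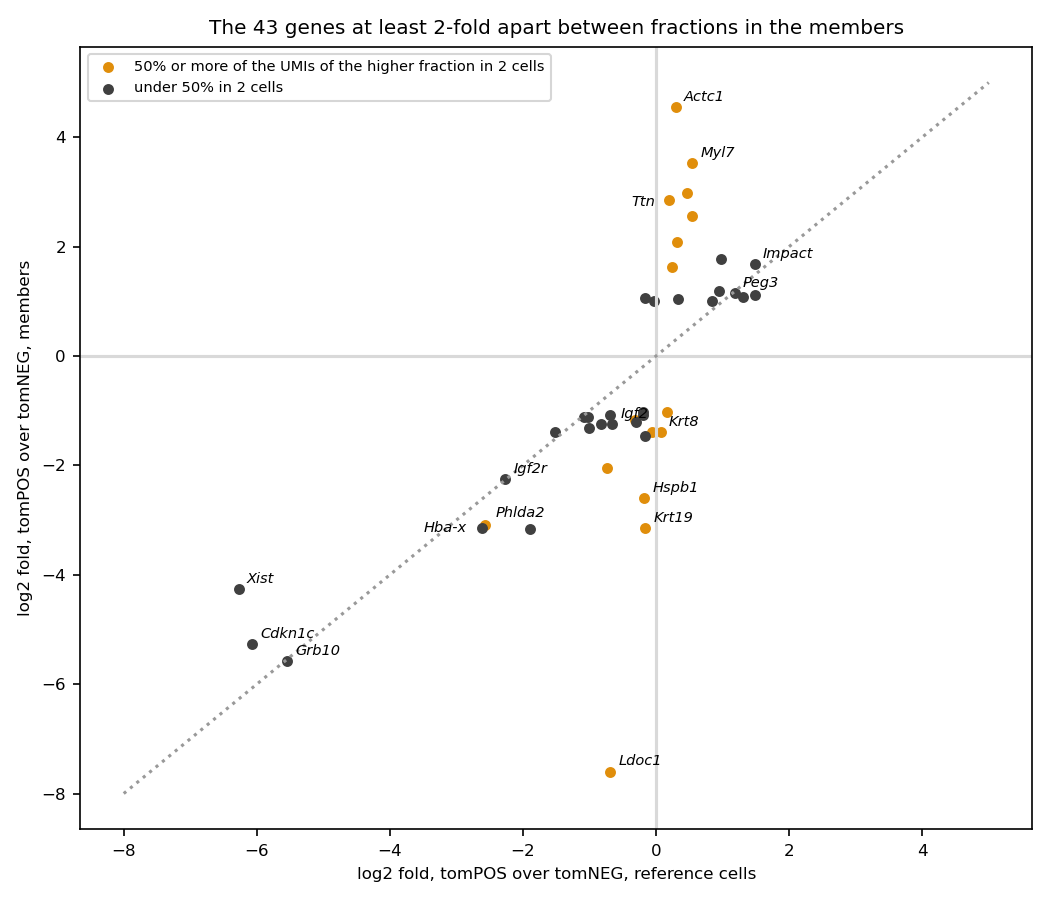
Log2 fold of tomPOS over tomNEG in the members (vertical axis) against the same fold in reference cells (horizontal axis) for the 43 genes at least 2-fold apart in the members, with the line of equal folds dotted. Orange points have 50% or more of the UMIs of their higher fraction in 2 cells. Imprinted genes such as Grb10 (-5.57 and -5.55), Igf2r (-2.26 and -2.27) and Impact (1.68 and 1.48) lie near the line, while most orange points, such as Actc1 and Ldoc1, lie far from it and Phlda2 lies near it.

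Apart from imprinted, globin and sex-linked genes, the largest differences rested largely on 3 cells. Some of these differences stayed past 2-fold without the 3 cells, as given below. Myl7, an atrial myosin light chain, had 598 UMIs in tomPOS members and 32 in tomNEG members (255 against 22 CPM), and 476 of the 598 (79.6%) were in 1 cell. The same cell held 84.1% of the 453 UMIs of cardiac actin Actc1, 94.5% of the 128 UMIs of the sarcomere spring titin (Ttn) and 70.4% of the 267 of the myosin light chain Myl4. It had 39132 spliced UMIs, was not called a doublet, and held endothelial RNA as well, with 2 UMIs of Cdh5, 9 of Kdr, 7 of Plvap, 7 of Cldn5 and 4 of Emcn. Of the 1307 UMIs on 8 cardiomyocyte markers in tomPOS members, 1000 (76.5%) were in this cell, and without it their summed level fell from 557 to 133 CPM beside 64.0 CPM in tomNEG.

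In the tomNEG members, 2 cells behaved in the same manner for another set of genes. All 120 UMIs of Ldoc1, a retrotransposon-derived gene, were in these cells (63 and 57). They also held 89.1% of the 110 UMIs of keratin Krt19 and 91.1% of the 101 UMIs of the small heat-shock protein gene Hspb1. For keratin Krt8 the share was 64.6% of 280 UMIs, and for the imprinted Phlda2 60.1% of 258. Both were deep, with 51215 spliced UMIs in a cell that was not called a doublet and 33077 in one that was. They met the rule mainly through 9 and 11 UMIs of Cdh5, with 5 of Kdr in the first and 1 each of Esam and Egfl7 in the second. Neither held any UMI of Emcn, Plvap, Cldn5, Icam2 or Pecam1. By these markers both go against the endothelial label, although Cdh5 was present. They were picked out after their values were seen, and what they are was not tested.

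**Figure D3:**
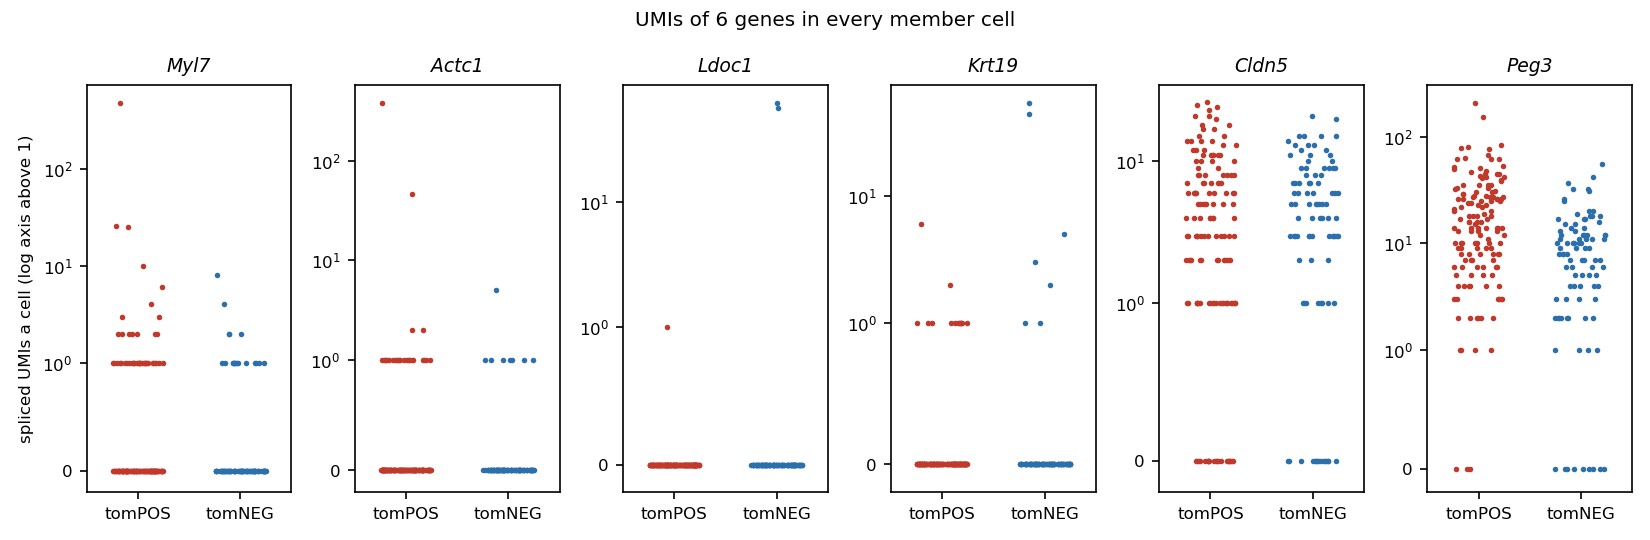
Spliced UMIs of 6 genes in every member cell of both fractions (1 point a cell, log axis above 1). Myl7 and Actc1 have 1 tomPOS cell far above the others (476 and 381 UMIs), Ldoc1 and Krt19 have 2 such tomNEG cells, and Cldn5 and Peg3 are spread over most cells.

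Without these 3 cells, 143 tomPOS and 90 tomNEG members remained, and of 4638 genes with at least 100 UMIs, 15 were higher and 14 lower in tomPOS. Of those 29, 15 were past 2-fold in the same direction in reference cells, 4 higher and 11 lower, and 9 were on the imprinted list. Ttn turned from 2.85 to -1.41 on the log2 scale, and Myl7 went from 3.53 to 1.18 (0.61 to 1.79), at 52.8 against 23.4 CPM. Acta2 stayed past 2-fold (1.10, 0.59 to 1.65). Actc1 (72 and 12 UMIs) and Myl4 (79 and 19 UMIs) fell below 100 UMIs. Their folds were still 1.83 (0.94 to 2.85) and 1.30 (0.57 to 2.11). Genes higher in tomPOS members but within 2-fold in reference cells included Cited1, a transcriptional coactivator gene (46.3 against 13.9 CPM, 1.74, 1.03 to 2.53). Others were the smooth-muscle gene Tagln (41.1 against 13.9 CPM, 1.57) and the cell-cycle inhibitor Cdkn1a (47.2 against 20.4 CPM, 1.21). Their folds in reference cells were -0.26, 0.46 and 0.33. With all members, the folds were 0.80 for Cited1 (49.0 against 28.2 CPM), 0.92 for Tagln (49.4 against 26.1 CPM) and 1.05 for Cdkn1a, so that Cited1 and Tagln passed 2-fold only once the 3 cells were left out. Cited1, Tagln and Cdkn1a were named after their values were seen. Some genes of the 3 cells differed between fractions in other cell groups too. Actc1 had 426 tomPOS and 14 tomNEG UMIs in Etv2-positive cells, and 15 and 8 in Lyve1-high endothelium. Krt19 had 39 and 21 UMIs in Etv2-positive cells, and 6 and 56 in Lyve1-high endothelium. Whether few cells carried these UMIs was not tested.

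Globin and sex-linked RNA also differed between fractions, in the members and in reference cells. Hba-x, an embryonic alpha-globin gene that the rule limits, stood at 44.7 CPM in tomPOS and 396 CPM in tomNEG members (log2 fold -3.15), with -2.61 in reference cells. It was seen in 92 of 92 tomNEG members and in 98.3% of tomNEG reference cells, and in 50.7% of tomPOS members and 52.9% of tomPOS reference cells, so that its share in members was at the level of cells that should lack it. Xist, the RNA of the inactive X chromosome, stood at 14.5 against 277 CPM (-4.26, and -6.27 in reference cells). The Y-linked helicase gene Ddx3y stood at 46.8 against 13.8 CPM (1.77, and 0.97 in reference cells). All 4 measured erythroid markers were lower in tomPOS members, beside 1.35% of all genes, and 2 were in reference cells. These markers were Hba-a1 and the 3 globin genes that the rule itself limits, so the count describes the rule in part.

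Markers of other cell types were present at levels that differed between lists. Summed over 9 myeloid markers, tomPOS members held 51.5 CPM and tomNEG members 39.2 CPM, with a median of 0 a cell in both and at most 920 and 347 CPM in a cell. The 8 megakaryocyte markers summed to 43.0 and 48.8 CPM, with 3 of them at 0 UMIs. The 10 endoderm markers summed to 14.5 and 91.5 CPM against 243 and 724 CPM in reference cells. Of these, Trap1a had 3 and 55 UMIs and the adhesion molecule Epcam 11 and 51. Without the 3 cells above, Trap1a had 3 and 8 UMIs and Epcam 11 and 20, so that much of the tomNEG sum lay in those cells. The 10 neural markers summed to 135 CPM in each fraction, of which the intermediate filament gene Nes, also found in young endothelium, gave 123 and 97.0 CPM. The neural factors Sox2 (4 and 22 UMIs), Otx2 (4 and 18) and Sox3 (3 and 8) went the other way, each with an interval below 0. The 9 mesenchyme markers summed to 330 and 177 CPM, with Acta2 at 155 and 50.2 CPM and 60.2% of its tomPOS UMIs in 1 cell. Their part in the folds above was not tested.

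Against Lyve1-high endothelium of the same library, the members carried more RNA of arterial genes. Of 5972 genes with at least 100 UMIs, 49 (0.82%) were at least 2-fold higher in members in both libraries and 73 (1.22%) lower. Of the 15 measured arterial genes, 5 were higher and 0 lower, against 1.04% and 0.966% of all genes at 30 UMIs, and their median log2 folds were 1.11 in tomPOS and 0.87 in tomNEG beside 0.02 over all of these genes in both. Gja4 stood at 87.7 against 20.5 CPM in tomPOS and at 155 against 19.9 CPM in tomNEG. The Notch target Hey1 stood at 74.5 against 14.9 CPM and at 53.7 against 7.76 CPM. Hey2 (2.14 and 2.12 on the log2 scale), the netrin receptor Unc5b (2.49 and 1.46) and the Notch ligand Jag1 (25 against 2 UMIs and 16 against 0) completed the 5. Dll4 pointed the other way, at 41.7 against 53.8 CPM and 22 against 51.0 CPM, with an interval that excludes 0 in tomNEG alone (-1.21, -1.91 to -0.53).

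Genes with at least 100 UMIs were ranked by the smaller of their folds in the 2 libraries. Among those higher in members, the first was Cyp26a1, the enzyme that breaks down retinoic acid. It stood at 60.0 against 3.54 CPM in tomPOS (log2 fold 4.08, 2.83 to 5.73) and 42.6 against 4.43 CPM in tomNEG (3.27, 1.84 to 5.19). Mogat2, an acyltransferase of fat synthesis, stood at 99.2 against 15.6 CPM and at 132 against 27.7 CPM. The DNA demethylation enzyme Tet1 (2.17 and 2.31), the Wnt antagonist Nkd1 (2.16 and 2.43), the membrane protein gene Palm (2.17 and 2.04) and the ion-transport regulator Fxyd6 (2.09 and 1.91) followed. Ndufa4l2, a mitochondrial gene known from low oxygen, had log2 folds of 3.70 and 1.76. Tnni1, a slow-muscle troponin, ranked among the 10 (2.25 and 1.77), yet 66.0% of its tomPOS UMIs were in the cell rich in cardiac RNA. Beyond the 10, the vasoactive peptide adrenomedullin (Adm) had 27 against 2 UMIs and 24 against 1, and the laminin gene Lamb1 stood at 69.4 against 21.3 CPM and 83.2 against 21.1 CPM. Emcn, on the venous list, was also higher in members (1.05 and 1.41).

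With rule genes left out, the 10 genes lowest in the members by the same ranking were of several kinds. Stab2, which takes up hyaluronan, had 3 UMIs against 97 in tomPOS (1.28 against 68.7 CPM, log2 fold -5.75, -8.05 to -4.16) and 0 against 110 in tomNEG, which at 3 counts bounds the log2 fold at -5.88 or lower. The mannose receptor Mrc1 stood at 16.2 against 123 CPM and 11 against 151 CPM. Clec14a stood at 9.37 against 92.8 CPM and 20.6 against 167 CPM, and the orphan receptor Gpr182 at 40.0 against 212 CPM and 25.4 against 316 CPM. Oit3 (-2.69 and -3.20), the homeobox gene Nkx2-3 (-2.63 and -2.78), Akr1b8 (-2.59 and -4.52), Tfec (-2.49 and -2.73), Rgs7bp (-2.23 and -2.78) and Pcdh17 (-2.52 and -2.21) made up the rest of the 10. The integrin Itga2b (-1.14 and -1.21), the growth factor Bmp4 (-1.32 and -1.29) and Nrg1 (-1.23 and -1.86) were lower as well. Lyve1 itself chose the 2 groups, and genes expressed together with it share that choice, so these counts describe the groups and support nothing further. Plvap differed little, at 441 against 492 CPM and 499 against 604 CPM.

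Against the Etv2-positive cells, 66 of 6787 genes (0.972%) were at least 2-fold higher in the members of both libraries and 32 (0.471%) lower. Etv2-positive cells were deeper, with medians of 19299 and 19463 spliced UMIs against 15135.5 and 13244.5 in members. Both groups were cut at fixed UMI counts, and this comparison was not repeated on thinned cells. Higher were several junction genes, with Cdh5 at 305 against 143 CPM in tomPOS and 329 against 139 CPM in tomNEG. Cdh5 is, however, a rule gene in both groups. Of the 17 junction genes 4 were higher (Cdh5, Emcn, Cd93 and Clec14a) and 0 lower, against 1.27% and 0.309% of all genes at 30 UMIs. Adgrl4, an adhesion receptor of vessel sprouts, stood at 27.3 against 5.17 CPM and 27.5 against 4.83 CPM. Apln, the ligand apelin, stood at 40.0 against 5.49 CPM and 27.5 against 6.44 CPM. Cd109 (2.32 and 2.65), Ldb2 (2.16 and 2.70), the caveola gene Ptrf (2.14 and 2.28), Cracr2b, Arhgap18, Klhl4, the growth factor binder Igfbp3 (2.26 and 1.69) and Mecom (1.69 and 1.90) followed. From the lists, the arterial ephrin Efnb2 (1.60 and 1.16), the endothelin gene Edn1 (1.33 and 2.68) and Adm (2.15 and 3.94) were higher too.

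Lower than in the Etv2-positive cells was the T-box gene Tbx4, a regulator in the allantois and hindlimb, which had 11 UMIs against 86 in tomPOS and 1 against 62 in tomNEG. Pitx1, also an allantois marker, stood at 16.6 against 56.9 CPM and 10.3 against 51.6 CPM, Hoxa10 at 7.24 against 33.6 CPM and 7.57 against 32.2 CPM, and the peptide hormone gene Cck at 5.54 against 49.4 CPM and 6.88 against 37.6 CPM. Of the measured endothelial factors, Tal1, the haemato-endothelial regulator, was lower at 54.1 against 119 CPM and 68.8 against 157 CPM. Col13a1, Nxf7, Nup62cl, Mmp9, Hopx and Phlda2 were the others of the 10, with log2 folds from -2.39 to -1.60 in tomPOS. Jag1, which was higher in members than in Lyve1-high cells, was lower than in Etv2-positive cells (10.6 against 28.4 CPM and 11 against 37.1 CPM). Kdr differed by less than 2-fold, at 344 against 405 CPM and 325 against 467 CPM.

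Against reference cells, 435 of 4734 genes (9.19%) were at least 2-fold higher in the members of both libraries and 71 (1.5%) lower. From 30 UMIs, the shares were 9.23% and 2.97%. Emcn had log2 folds of 9.14 and 9.88. With the rule genes and the 4 markers left out, the 10 widest folds upward were those of Cldn5, Icam2, Gja4 and Myct1, given above, and of the complement-receptor-like Cd93 (8.78 and 8.92 on the log2 scale), the unnamed locus AC113508.1 (8.74 and 9.63), Adgrl4 (8.6 and 10.52), Clec1b, the receptor CLEC-2 of platelets (8.0 and 9.67), the immune GTPase Gimap4 (8.0 and 8.04) and Gpr182 (7.84 and 8.6). Clec1b was seen in 43.8% and 47.8% of members, and in 0.444% and 0.195% of reference cells. Among the 10 genes lowest relative to reference cells, the growth factor Ptn came first (45.6 against 469 CPM and 53.0 against 688 CPM). Further down were the posterior gene Cdx4 (31.9 against 134 CPM and 20.6 against 165 CPM) and the retinoic acid binder Crabp1 (141 against 559 CPM and 91.5 against 667 CPM). The Wnt receptor Fzd2, the inhibitor Id2, Hand1, Car4, Hoxaas3, Nr6a1 and Cited1 were the other 7.

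The members were not uniform, and Leiden clustering split them into 5 groups of 75, 72, 49, 30 and 10 cells. Left out were genes used by the rule, the listed cell-cycle, imprinted and sex-linked genes, and mitochondrial and ribosomal genes. Also left out were 945 genes past 2-fold between fractions in reference cells, and the groups do not rest on any of these. Imprinted or sex-linked genes outside the lists were left out only where they were among the 945. The leading genes below define the groups and are a description. Counts of list genes past 2-fold in a group are a description too. The share over all genes was not computed for the groups, so these counts show nothing particular to a list. In none of the groups were all 10 leading genes within 2-fold between fractions, so the fractions' shares are not compared. The cells per group were 55 tomPOS and 20 tomNEG in group 1, 36 and 36 in group 2, 27 and 22 in group 3, 18 and 12 in group 4, and 8 and 2 in group 5.

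Group 1 was led by Esm1, Klhl4, Klf2, Tmem100, Gpr182, Npr3, Tm4sf1, Clu, Maf and Dll4. Klf2, which responds to blood flow, stood at 156 CPM against 31.8 CPM in the other members, and Npr3, a natriuretic peptide receptor of endocardium, at 73.3 against 14.8 CPM. The BMP target Tmem100 stood at 49.2 against 5.43 CPM and the arterial ligand Dll4 at 76.1 against 18.4 CPM. Within the group the fractions differed, with Tmem100 at 34.0 CPM in tomPOS and 91.9 CPM in tomNEG cells, and Dll4 at 90.1 and 36.7 CPM. Emcn (267 against 98.4 CPM) and Plvap (803 against 336 CPM) were also higher, while the venous factor Nr2f2 was lower (10.6 against 42.7 CPM). Of the endocardial list, Nfatc1 (13.5 against 6.15 CPM) and Nrg1 (18.3 against 7.60 CPM) were higher too, and Ednrb stood at 12.5 against 22.4 CPM with an interval that includes 0. The arterial and the venous lists each held genes of both directions. Jag1 and Jag2 of the arterial list were lower (2.89 against 13.7 CPM and 2.89 against 11.2 CPM), and the scavenger receptor gene Mrc1 (31.8 against 7.60 CPM) and Lyve1 (25.1 against 7.23 CPM) of the venous and lymphatic list were higher. The group was left unnamed.

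The leading genes of group 2 included Aqp8, Ucn, Ier3, Mirg, Rsad2, Ednrb, Insig1, Msmo1 and Cyp51. Insig1, Msmo1 and Cyp51 belong to cholesterol synthesis and its feedback, and Cyp51, a sterol demethylase, stood at 173 CPM against 51.5 CPM (244 CPM in the tomPOS and 100.3 CPM in the tomNEG cells of the group). The Notch ligand Jag2 stood at 22.2 against 3.68 CPM and Hey2 at 19.4 against 8.09 CPM, whereas Dll4 (18.5 against 40.4 CPM) and the arterial-list gene Mecom (8.31 against 24.6 CPM) were lower. Emcn stood at 40.6 against 186 CPM. The matrix protein fibronectin (Fn1) stood at 937 against 325 CPM and Plac1, on the allantois list, at 145 against 52.6 CPM, while Hand1 (7.39 against 40.8 CPM) and Spin2c (2.77 against 33.8 CPM) of that list were lower.

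Group 3 was led by Cdkl1, AC113508.1, Lat, Ndufa4l2, Adm, Mmrn1, Bcl2, Fxyd6, Kcne3 and Bin1. Bin1, a membrane-bending protein, stood at 432 CPM against 147 CPM and Adm at 44.6 against 7.25 CPM. Of the 15 measured arterial genes, 7 were at least 2-fold lower and 0 higher, with no share over all genes to set beside this. Among the lower were Gja4 at 15.9 against 133 CPM and Hey1 at 11.1 against 77.5 CPM. Nr2f2, the venous identity factor COUP-TFII, stood at 78.0 against 25.2 CPM, the scavenger receptor Stab1 at 39.8 against 17.6 CPM and Emcn at 258 against 122 CPM. Icam2 reached 405 against 191 CPM. Of the same venous and lymphatic list, Lyve1 had 0 UMIs in the group, while Tek (73.3 against 79.4 CPM), Aplnr (12.7 against 15.1 CPM) and others lay within 2-fold. No marker of that list was among the 10 leading genes, and the group was left unnamed.

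Group 4 stood apart by depth and doublet calls, with a median of 28067.5 spliced UMIs and 22 of its 30 cells called doublets, against 1 of 75 in group 1 and 0 in the other groups. Its leading genes were Actc1, Acta2, Krt18, Hoxaas3, Myl7, Ldoc1, Krt8, Ttn, Cdx4 and Krt19, and it held the 3 cells described above. A single cell held 86.6% of the Actc1, 89.1% of the Myl7, 92.4% of the Ttn and 54.2% of the Acta2 UMIs of the group, and Ldoc1 was seen in 2 cells, whereas Krt8 was seen in 24 and Krt18 in 21. Lower by at least 2-fold were 13 of 17 junction, 8 of 18 VEGF and angiopoietin and 11 of 21 endothelial transcription factor genes. In these lists 1 gene, a transcription factor, was higher. Here too no share over all genes was computed. Cldn5 stood at 166 against 408 CPM and Plvap at 213 against 539 CPM. Group 5 was led by Fcer1g, Nrgn, Adgrg1, Pla2g4a, Cyth4, Nupr1, Runx1, Gfi1b, Bin2 and Myb. Of these, Adgrg1 (13 UMIs in 7 cells), Runx1 (9 in 5), Gfi1b (7 in 4) and Myb (8 in 4) are on the haemogenic and blood progenitor list. None of these 4 reached 30 UMIs over all members. Of the 7 genes of that list that did, 3 were higher and 0 lower. Higher too were 2 of 2 myeloid and 2 of 2 megakaryocyte genes. Laptm5 is on both the haemogenic and the myeloid list, and Itga2b on both the haemogenic and the megakaryocyte list. These counts therefore overlap, and no share over all genes stands beside them. The UMIs of the leading genes are few and did not cover all 10 cells, and the group was left unnamed. The first of its leading genes, Fcer1g, is known from myeloid cells (118 against 1.10 CPM). Coro1a of the myeloid list (47.1 against 6.06 CPM) and Pf4 of the megakaryocyte list (35.3 against 7.16 CPM) were higher as well. Emcn stood there at 5.89 against 151 CPM, Sox17 at 11.8 against 131 CPM and Peg3 at 88.3 against 1166 CPM. Group 5 held 169889 spliced UMIs in all, so its low levels, as of Emcn and Sox17, rest on very few UMIs. Cldn5 (159 CPM), Icam2 (100.1 CPM) and Gja4 (200.1 CPM) were present in group 5 too, with Cldn5 and Icam2 near their levels in group 4 (166 and 107 CPM). In both groups the endothelial label was thus met by some markers and not by others.

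**Figure D4:**
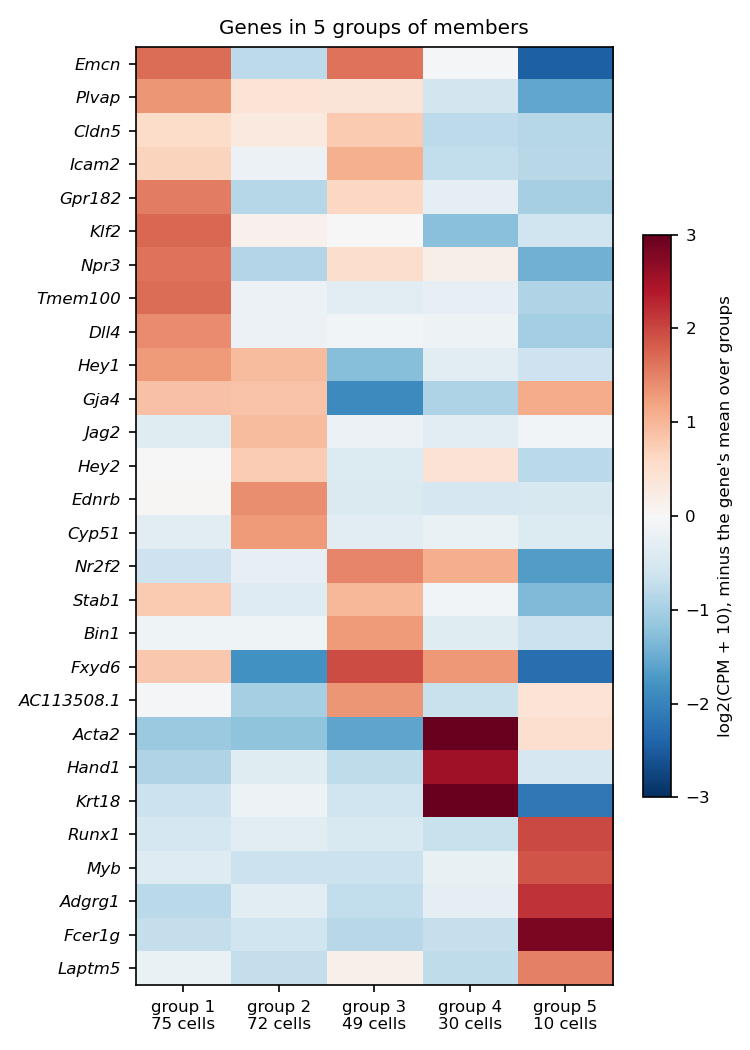
Genes (rows) in the 5 groups of members (columns), as log2 of CPM with 10 CPM added, less the mean of the gene over the groups (red higher, blue lower). Emcn is high in groups 1 and 3 (267 and 258 CPM) and low in group 5 (5.89 CPM), Gja4 is low in group 3 (15.9 CPM), and Acta2, Hand1 and Krt18 are high in group 4.

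A stretch of chromosome 3 was lower in tomPOS cells, in the members and in the 3 cell groups compared with them. From Zmat3 to Sclt1 (chr3:32334792-41742514, GRCm38, 9.41 Mb), all 27 genes with at least 30 UMIs were lower in tomPOS members, with a median log2 fold of -0.97 and a range from -2.28 to -0.30. The other 7600 genes had a median of -0.01. Summed over the stretch, tomPOS members held 1169 CPM and tomNEG members 2257 CPM, a ratio of 0.518 (log2 -0.95, -1.02 to -0.88). The ratio was 0.495 in Lyve1-high endothelium, 0.499 in Etv2-positive cells and 0.511 in reference cells, so it was not particular to the members. Genes there included Actl6a, a chromatin remodelling subunit (108 against 232 CPM, -1.11), Ndufb5 of respiratory complex I (233 against 459 CPM, -0.98), the phospholipid binder Anxa5 (161 against 310 CPM, -0.94) and cyclin A2, Ccna2 (106 against 184 CPM, -0.79). On the 19 other chromosomes, medians over windows of 9 neighbouring genes lay between -0.69 and 0.49 in members. The bounds of the stretch were set after the folds were seen, and the copy number was not measured.

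**Figure D5:**
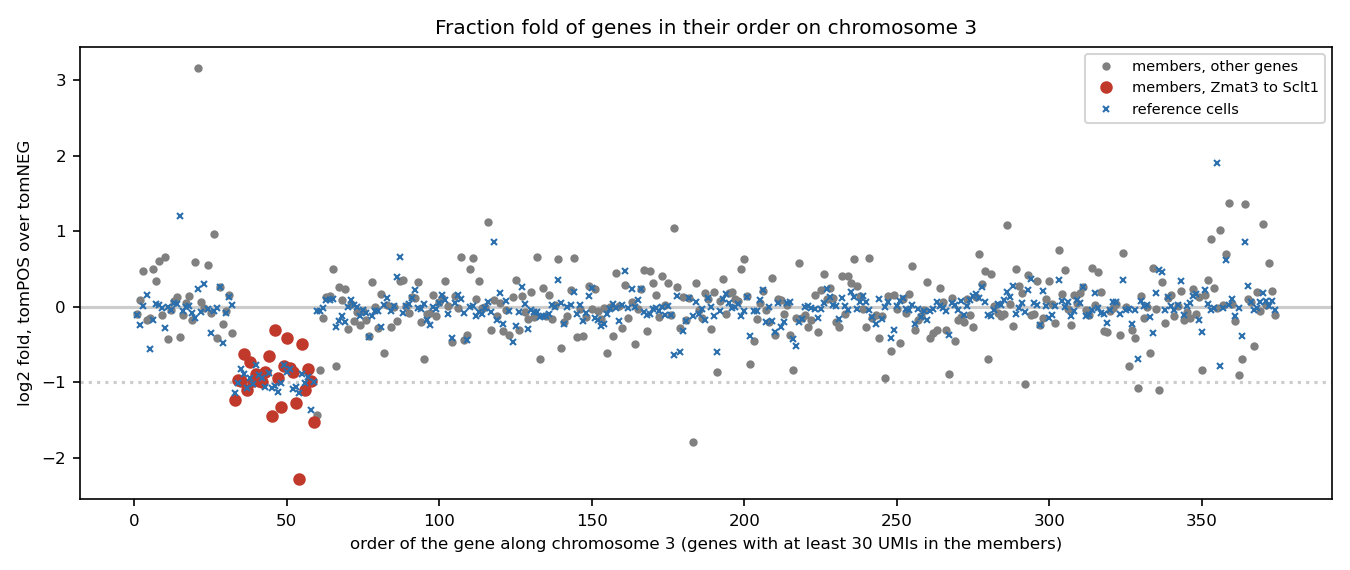
Log2 fold of tomPOS over tomNEG for genes on chromosome 3 in their order along it, in members (grey, and red from Zmat3 to Sclt1) and in reference cells (blue crosses). The 27 red genes all lie below 0 around the dotted line at -1 (median -0.97), and the crosses beside them follow (median -1.01), while the other genes scatter around 0.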

How the data were processed

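Cells of both fractions were profiled by droplet single-cell RNA sequencing (10x Chromium). Per the labels and the methods, the authors mapped reads with Cell Ranger 3.0.2 (submitters' processing notes) to mm10, called and filtered cells by counts and mitochondrial share, and used velocyto to count spliced and unspliced molecules apart. The deposited tables hold raw UMI counts per cell and gene. The deposited cell table also gives the percent of mitochondrial counts, which was used for description. The methods say that doublet barcodes were identified, and whether they were removed is not given in the sources used here. The deposited count tables hold more cells of each fraction than the study counts after quality control and cell type assignment, and all of them were used. Doublets were called here with Scrublet as implemented in scanpy 1.11.5 and kept unless stated.

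Counts were summed over cells and scaled to CPM of spliced UMIs (Python 3.11.15, numpy 2.4.6, scipy 1.17.1, pandas 2.3.3). Log2 folds carry exact conditional binomial 95% intervals, levels and shares exact Poisson or Clopper-Pearson intervals, and a count of 0 a limit of 3 counts. Intervals treat UMIs as independent molecules. Folds count as past 2-fold where the log2 fold is at least 1 in size and the interval excludes 0, in both libraries for comparisons between cell groups, among genes with at least 100 UMIs (30 for gene lists). With 1 library for each fraction no test was run. Groups came from Leiden clustering (leidenalg 0.10.2, 2000 variable genes, 20 components, 15 neighbours, resolution 0.6). Coordinates on chromosome 3 are from the GENCODE annotation of GRCm38, promoters from RefSeq. Interval code was tested on simulated data.

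The members, gene lists and thresholds were chosen with earlier results of these data known. Named were the rule genes and markers, Gata1, Xist and Y genes, the 10 widest folds in each direction of each comparison (leaving out the genes named before), up to 6 genes of each list and the 10 leading genes of each group, of which 1 is not reported here. Others are given as examples and were named after their values were seen. Among the 10 widest folds between fractions, Tnnt2 (log2 fold 2.56), Plagl1 (1.20) and Tpm2 (-1.45) are given here alone. Of the Tnnt2 UMIs in tomPOS members, 63.3% were in the cell rich in cardiac RNA. The alternatives are given in the closing section, and subtraction of free RNA was run for Gata1 alone.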

Additional observations from a re-analysis of the deposited data

How the results depend on the processing

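No paired analysis was possible because each fraction is 1 library and no test was run. The number of genes tested changed with the setting, so a moved count need not be a moved share. Between fractions, the counts past 2-fold (17 higher and 26 lower of 4734 genes) moved by over 1.5 times in several settings. They were 7 and 16 of 3128 with cells thinned to 10000 UMIs, and 11 and 14 of 4013 without group 4, which held most doublet calls. From 30 UMIs they were 81 and 105 of 7765, and with no filter 126 and 269 of 14340. Without the 3 cells rich in cardiac or keratin RNA, 14 of 4638 were lower. Against Lyve1-high endothelium (49 and 73 of 5972), 75 of 7262 were higher with unspliced UMIs added and 44 of 4041 lower after thinning. From 30 UMIs, 81 and 116 of 8698 were past 2-fold. Against Etv2-positive cells (66 and 32 of 6787), 151 of 6369 were higher where positive meant at least 4 Etv2 UMIs, and 56 of 6508 lower without group 4. Against reference cells (435 and 71 of 4734), 43 of 4013 were lower without group 4. With Lyve1 at 0, the tomPOS members were 1.30% of their library. Of the comparison values, 71 stayed within these limits and 17 moved. Leaving out a replicate was not possible with 1 library for each fraction.

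Of 760 values of named genes under the alternatives, 620 stayed within the interval, 134 left it in the same direction and 6 reversed. Reversed were Ttn (-1.41 without the 3 cells and -1.45 without group 4) and, without group 4, Krt19 (0.28), Mt1 (0.0558), Krt8 (0.32) and Tnni1 against Lyve1-high cells in tomPOS (-0.15). Igf2r went from -2.26 to -0.51 with unspliced UMIs added. The causes were not tested. The settings that leave out 3 cells, group 4 or tomPOS members with Xist were chosen after seeing the data. Clustering gave 5 groups at resolution 0.3 (adjusted Rand index 1 with the groups described), 7 at 1.0 (0.728), 5 with no genes left out for differing between fractions (0.963) and 6 without called doublets (0.672). Counting depth limits single genes in single cells, and the spread between embryos is unknown.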

Other observations

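Unspliced UMIs of several genes in the mature endothelium gave another picture than the spliced ones. Igf2r, whose spliced level was 20.4 CPM in tomPOS and 97.7 CPM in tomNEG members, had unspliced UMIs at 575 and 412 CPM of all unspliced UMIs (log2 fold 0.48, 0.14 to 0.83), so that 82.6% of its tomPOS UMIs and 41.8% of its tomNEG UMIs were unspliced. Shares in reference cells were alike, at 80.1% and 34.8%, so this was not particular to the endothelium. The gene overlaps the antisense transcript Airn, and whether unspliced counts used strand is not given in the sources used here. Grb10 differed alike in both kinds of molecule, with unspliced UMIs at 40.3 and 1232 CPM (-4.93, -5.76 to -4.21). Runx1, with 14 and 0 spliced UMIs, had 73 and 31 unspliced UMIs (184 and 125 CPM, against 149 and 12.1 CPM in reference cells). The reference cells include cells with blood progenitor RNA, as given above. Bmp6, an endocardial-list gene, was 97.7% and 94.8% unspliced in the members, with 128 and 92 unspliced UMIs, and 98.7% and 97.8% unspliced in reference cells. Nfatc1, the endocardial transcription factor, had 45 and 13 unspliced UMIs (113 and 52.5 CPM, log2 fold 1.11, 0.20 to 2.13), beside 23 and 8 spliced ones.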
